A study of Mus musculus with 8 samples.

Results

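The binding sites of E2f3 in crypt cells of control mouse intestine were set against those in villus cells of control mouse intestine. The sites were taken from the deposited site lists of the 2 control libraries made with the E2f3 antibody, 32666 sites in crypt and 7405 in villus, which together are 40071 of the 284230 sites in the 8 lists of the series. A site of one library was called shared when a site of the other lay within 250 bp, and the comparison was made with the full lists and with the 7405 highest-scored crypt sites, which gives lists of equal length. The mice were of a mixed background (C57BL/6 X 129 X FVB/N) and the control samples were labelled wild type. The remaining 6 libraries were used here to describe where these sites recur. They were made with the same E2f3 antibody in crypt and villus cells of Rb KO mice, and with a Myc antibody in crypt and villus cells of both genotypes. Per the labels, Rb was deleted with Ah-cre, an inducible Cre active in intestine. The same treatment text stands beside every sample, and whether the control mice carried Cre is not stated in it. The assay was ChIP-exo-seq, in which chromatin bound by a factor is pulled down with an antibody and digested with an exonuclease that stops at the crosslinked protein, so that a site is given as a single base.

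E2f3 is a member of the E2F family of transcription factors, which bind DNA together with a DP protein and switch on genes for DNA replication and cell division. Pocket proteins such as Rb hold E2F factors in check until cyclin-dependent kinases phosphorylate them. In the small intestine, cells divide in the crypts and stop dividing as they move onto the villi, where they work as absorptive and secretory cells. Genes needed for mitosis often carry a further promoter element, the cell cycle genes homology region (CHR, TTTGAA or TTCGAA), to which the MuvB complex binds.

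Sequence around the sites is shown first, since crypt-only promoter sites had an E2F motif within 50 bp less often than promoter sites found in both libraries. All stretches are from the plus strand of mm9 (reference NCBIM37). The first set comes from promoters with a site in both libraries, and capitals mark the E2F motif, which was taken as TTNNCGC on either strand with a C or a G at each N.
Mcm6, chr1:130256345-130256425: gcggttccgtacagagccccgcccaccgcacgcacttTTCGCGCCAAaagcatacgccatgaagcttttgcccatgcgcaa
Prim1, chr10:127452245-127452273: ggcctgtcttgTTCCCGCcaattctcgtg
Wee1, chr7:117265421-117265501: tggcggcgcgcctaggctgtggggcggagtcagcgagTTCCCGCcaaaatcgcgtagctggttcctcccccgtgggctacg
Srsf1, chr11:87860772-87860852: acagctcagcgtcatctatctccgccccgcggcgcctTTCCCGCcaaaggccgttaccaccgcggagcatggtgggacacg
In Mcm6, which encodes a subunit of the replicative helicase, overlapping matches on the plus and minus strand make a run of 10 capitals. In Prim1, Wee1 and Srsf1 the crypt and the villus site lay at the same base, inside the motif.

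The second set comes from promoters with a crypt site and no villus site, and capitals mark the CHR element on either strand. They were chosen because the element lies beside the site, which is not so for the crypt-only sites of Incenp and Nuf2. None of the crypt sites at these 4 genes had the E2F motif as defined above within 50 bp, and looser forms of it were not counted. In all 4 stretches the site itself lay outside the capitals.
Aurkb, chr11:68859105-68859159: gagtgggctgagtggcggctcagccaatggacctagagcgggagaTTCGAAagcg
Iqgap3, chr3:87885908-87885972: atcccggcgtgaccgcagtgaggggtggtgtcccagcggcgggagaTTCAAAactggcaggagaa
Bub1, chr2:127657573-127657627: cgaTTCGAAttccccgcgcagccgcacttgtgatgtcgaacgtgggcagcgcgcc
Top2a, chr11:98885504-98885583: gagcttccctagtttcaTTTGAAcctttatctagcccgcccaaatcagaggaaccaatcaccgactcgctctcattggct
These sites lay 4 bp upstream of the Aurkb start, 25 bp upstream of the Iqgap3 start, 14 bp downstream of the Bub1 start and 40 bp upstream of the Top2a start. The nearest villus site was 21696 bp from the Aurkb site, 16143 bp from the Iqgap3 site, 150388 bp from the Bub1 site and 29455 bp from the Top2a site.

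The third set comes from the few promoters with a villus site and no crypt site, with the E2F motif in capitals.
Tra2b, chr16:22266154-22266234: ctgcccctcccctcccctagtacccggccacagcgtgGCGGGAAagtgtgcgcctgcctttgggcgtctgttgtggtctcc
Rb1, chr14:73726044-73726124: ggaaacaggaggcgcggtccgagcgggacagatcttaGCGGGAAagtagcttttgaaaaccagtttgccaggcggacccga
Suv39h1, chrX:7651341-7651369: agagccgccttTTCCCGCgcgtggccgca
These 3 were chosen for display because they have the motif, which the villus sites of Pold2 and Pmf1, also bound in villus only, do not have in the stretch around them. In all 3, the motif reads TTCCCGC on one of the strands. The sites of Mcm6, Wee1, Srsf1, Aurkb, Iqgap3, Top2a, Tra2b and Rb1 lay upstream of the annotated start, outside genes, and those of Prim1, Bub1 and Suv39h1 fell in a UTR or non-coding exon.

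The crypt list was 4 or more times as long as the villus list, and its depth and that of the villus list are unknown. Each library was the only one of its group, so no comparison below has a replicate check, no test was made, and the 95% intervals are exact binomial intervals that cover counting error only. Each site carries a score from the authors' files that lies between 2 and a cap of 999 and whose meaning is not stated. Scores had a median of 10.68 in crypt (quartiles 5.54 and 21.33, 70 sites at the cap) and 8.52 in villus (quartiles 4.92 and 15.45, 27 sites at the cap). They were used to rank sites within a list and are printed as deposited. Absence from a list is not absence of binding. Fewer E2f3-bound cells in a sample and less E2f3 per cell cannot be told apart.

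Most villus sites lay among the crypt sites, and most of the highest-scored crypt sites were found in villus. In the full lists 6868 of 32666 crypt sites (21.0%, 20.6% to 21.5%) and 6664 of 7405 villus sites (90.0%) were shared. Only 0.139% of reference bases lay within 250 bp of a villus site and 0.627% within 250 bp of a crypt site. At equal length 60.1% of crypt sites (59.0% to 61.2%) and 60.2% of villus sites were shared. The share of crypt sites found in villus was 93.0% among ranks 1 to 100, 92.2% among ranks 101 to 500 and 89.4% among ranks 501 to 1000. It was 81.3% for ranks 1001 to 2000, 65.7% for ranks 2001 to 4000 and 41.6% for ranks 4001 to 7405. In the remaining list it was 19.2% for ranks 7406 to 15000 and 5.43% for ranks 15001 to 32666. The share thus became smaller with each step down the crypt list.

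**Figure D1:**
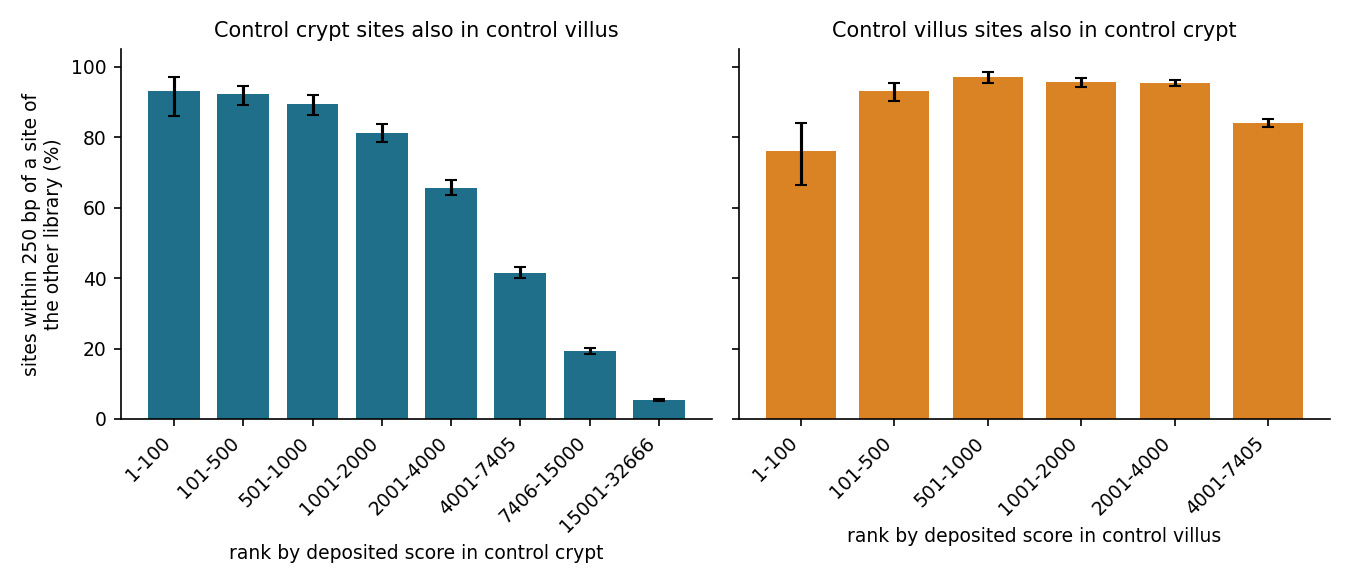
Share of sites within 250 bp of a site of the other library (vertical axis, %) by rank of the deposited score (horizontal axis), for control crypt sites on the left and control villus sites on the right; error bars are exact 95% binomial intervals. The crypt share runs from 93.0% in the first rank class to 5.43% in the last, while the villus share is lowest, 76.0%, among the 100 highest-scored villus sites.

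Villus sites followed another pattern. Their shared share was 76.0% (66.4% to 84.0%) among ranks 1 to 100, 93.2% among ranks 101 to 500 and 97.2% among ranks 501 to 1000. It was 95.7%, 95.5% and 84.1% in the 3 classes below these (ranks 1001 to 2000, 2001 to 4000 and 4001 to 7405). Of the 24 unshared sites among the 100 highest-scored villus sites, 8 lay on contigs outside the reference chromosomes and 4 within the first 3100000 bases of chromosome 9. Among the top 100 sites, 46 crypt sites and 81 villus sites also lay within 250 bp of a site in at least 1 of the 4 Myc lists. The very top of the villus list was thus richer than that of the crypt list in sites that the Myc antibody also gave.

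Where a site was shared, both libraries usually placed it within a few bases. Of the 6868 shared crypt sites, 13.0% had a villus site at the same base, 44.5% within 10 bp and 93.9% within 50 bp. With an E2F motif within 50 bp, 603 of 737 shared crypt sites (81.8%, 78.8% to 84.5%) had the villus site at exactly the same base. Without the motif, 272 of 6010 (4.53%) did, and the median distance was 15 bp. GEM, the caller named in the deposited file names, can place events on a motif, so this share is not independent of the calling. The scores of 6427 pairs of mutually nearest sites below the cap ordered alike (Spearman's rho of 0.68 across pairs, which share the 2 libraries and are not replicates), with medians of 33.56 in crypt and 8.84 in villus.

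Most sites of either library lay far from gene starts and had no E2F motif, and most of these were also in the Myc lists. Of sites on the reference chromosomes, 27030 of 29085 crypt sites (92.9%) and 5882 of 6241 villus sites (94.2%) outside promoters lay within 250 bp of a site of at least 1 Myc list. The control crypt Myc list, by far the longest with 159181 sites, alone lay near 26759 of these crypt sites and 5771 of these villus sites. A promoter site was one within 1 kb of the start of a protein-coding gene, a zone that covers 2.31% of reference bases. At promoters with an E2F motif the share near a Myc site was 150 of 1329 crypt sites (11.3%) and 71 of 566 villus sites (12.5%). At promoters without the motif it was 43.6% in crypt and 45.3% in villus. Sites near a Myc site thus made up most of both lists and a small part of the motif-bearing promoter sites. When all of them were left out, an alternative chosen after the data were seen, 4428 crypt sites and 1105 villus sites remained, of which 53.3% and 66.6% were promoter sites. At equal length 59.6% of these crypt sites and 59.5% of these villus sites were shared, which is as many as in the whole lists. The part of these sites in what E2f3 itself binds was not tested.

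**Figure D2:**
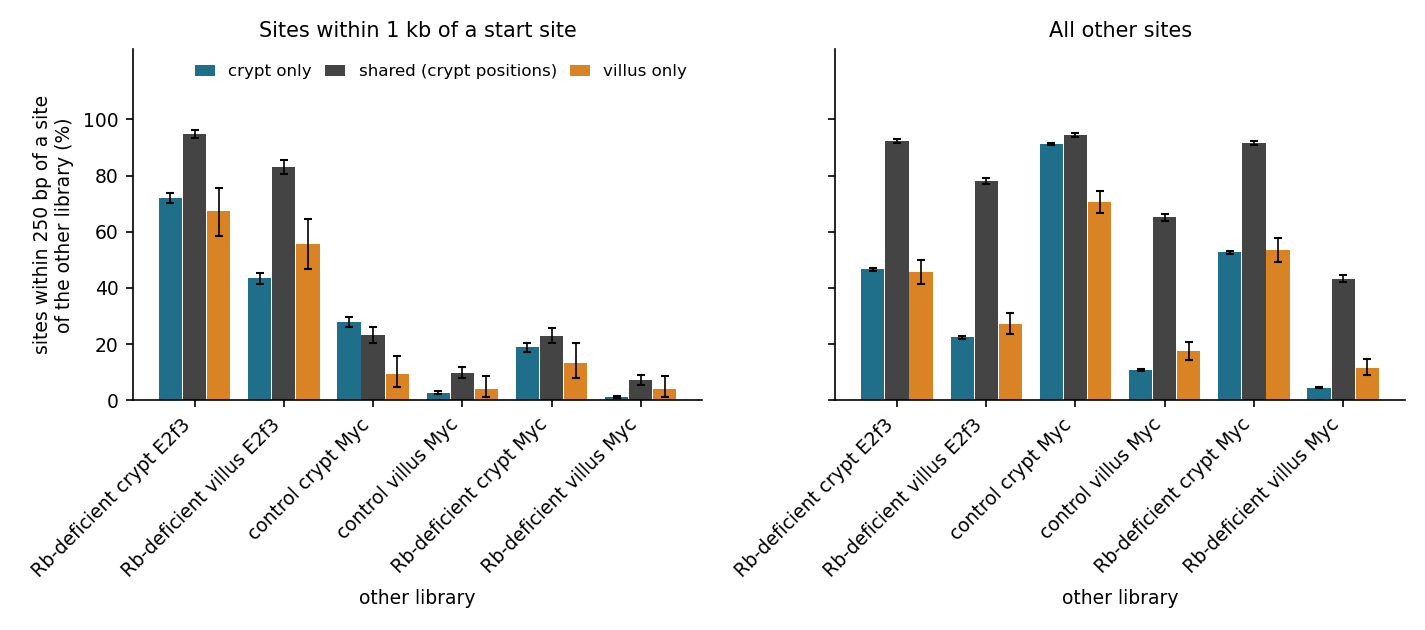
Share of crypt-only, shared and villus-only sites (bars, full lists, with exact 95% binomial intervals) within 250 bp of a site of each of the 6 other libraries, for promoter sites on the left and all other sites on the right. Outside promoters 91.4% of crypt-only and 94.4% of shared sites lay near a control crypt Myc site, against 27.8% and 23.1% at promoters. The control crypt Myc list has 159181 sites, with 3.03% of reference bases within 250 bp of one. The other Myc lists have 4119 to 31397 sites, so heights are not comparable between Myc libraries.

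Crypt promoter sites with an E2F motif were shared with villus more often than those without it. Among the 3402 crypt promoter sites, 524 of 1329 with an E2F motif (39.4%, 36.8% to 42.1%) and 377 of 2073 without one (18.2%, 16.5% to 19.9%) were shared with villus. At equal length the shares were 73.9% (70.0% to 77.5%) of 540 crypt sites with the motif and 48.7% (44.1% to 53.2%) of 487 without it. In the full list, crypt promoter sites with the motif also scored higher, with a median of 16.58 against 10.02 without it. The part of score in this difference between promoter sites was not tested. Outside promoters the motif went with less of a difference, 63.7% of 201 sites with it and 59.4% of 6100 without it at equal length. Seen from the other side, 32.2% of crypt-only, 58.2% of shared and 51.2% of villus-only promoter sites had an E2F motif within 50 bp, with 0.920% of windows 2 kb from the crypt-only promoter sites as background. The GC box, the motif of Sp/KLF factors at many promoters, lay within 50 bp of 44.2% of crypt-only, 36.8% of shared and 34.1% of villus-only promoter sites. Crypt-only promoter sites thus had fewer E2F motifs than shared ones.

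Counted by class, 9.72% of crypt-only sites (9.36% to 10.1%), 13.4% of shared crypt sites and 19.3% of villus-only sites (16.4% to 22.5%) were promoter sites. The remaining sites fell mostly between genes or in introns, and in like proportions: 53.7% of crypt-only and 56.3% of villus-only sites outside promoters were intergenic, and 43.7% and 40.9% were intronic. Promoter sites sat close to the start, at a median of 36 bp upstream in crypt-only and 27 bp upstream in shared crypt sites. Villus-only promoter sites were more spread, with a median of 48 bp downstream and 18.6% of 129 within 100 bp of the start, against 36.9% of 2501 crypt-only promoter sites. Across the autosomes and chromosome X, the shared share ran between 17.1% and 23.0% of crypt sites and between 87.5% and 95.2% of villus sites.

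At the level of genes, most genes with a villus site also had one in the longer, full crypt list. Of 22232 protein-coding genes, 3240 had a promoter site in crypt and 994 in villus. With the full lists 2342 genes had one in crypt only (10.5% of genes), 898 in both (4.04%) and 96 in villus only (0.432%). At equal length the counts were 396 in crypt only (1.78%), 672 in both (3.02%) and 322 in villus only (1.45%). Most crypt-bound genes thus had no villus site with the full lists, and most had one at equal length. From the villus side, 322 of the 994 villus-bound genes had no crypt site at equal length, so neither set held the other. These shares are the background for every gene group below. In 537 of the 898 genes (59.8%) the highest-scored promoter site was at the same base in both libraries. The scores given for a gene below are those of its highest-scored promoter site in each library, which need not be the same site. Whether a crypt-bound gene was also bound in villus followed its crypt score. It held for 231 of 270 genes with a crypt score of 100 or more (85.6%, 80.8% to 89.5%), 365 of 595 from 30 to 100 (61.3%), 220 of 1057 from 10 to 30 (20.8%) and 82 of 1318 below 10 (6.22%).

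At crypt scores of 30 or more, the genes of DNA replication and deoxynucleotide supply had villus sites about as often as all genes of like score. Of 71 such genes, 20 had a promoter site in crypt only, 36 in both, 1 in villus only and 14 in neither. The share of crypt-bound members also bound in villus was 64.3% (50.4% to 76.6%), against 27.7% (26.2% to 29.3%) of all crypt-bound genes, and at equal length 76.7% (61.4% to 88.2%) against 62.9% (59.9% to 65.8%). Their crypt scores were high, with a median of 77.22 against 13.04 over all crypt-bound genes. At scores of 30 or more their share was close to that of all genes, with 18 of 21 members (85.7%) at 100 or more and 14 of 21 (66.7%) from 30 to 100. Below 30 it was 4 of 14 (28.6%, 8.39% to 58.1%), against 302 of all 2375 genes (12.7%), a wide interval on few genes.

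Origin licensing, the loading of the MCM helicase onto origins, had 11 of 15 members bound in crypt and 8 of these in villus. The helicase subunit gene Mcm3 scored 999 in crypt and 169.81 in villus. Its partners followed with 297.64 in crypt and 123.33 in villus for Mcm6, 999 and 89.59 for Mcm4, and 134.65 and 57.25 for Mcm7. Mcm5 was bound in crypt alone, at a score of 22.36, and Mcm2 in neither. Of the origin recognition complex, Orc5 (11.78) and Orc4 (5.06) had crypt sites with no villus site, and Orc1, Orc2 and Orc3 had none in either library. Cdc6 (158.53 in crypt, 44.43 in villus) and Cdt1 (84.14 in crypt, 27.43 in villus), the helicase loaders, and Gmnn (90.67 in crypt, 26.09 in villus), the inhibitor of Cdt1, were bound in both. These 3 genes and Orc6, the remaining member bound in both, are outside the naming rule and were named after their values were seen.

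Origin firing and fork progression had 14 of 15 members bound in crypt, 9 of these in villus. Gins2, a subunit of the GINS complex that activates the helicase, scored 262.85 in crypt and 64.66 in villus, but its partner Gins1 scored 236.41 in crypt and had no villus site. Cdc45, the third component of the active helicase, likewise scored 132.91 in crypt and had no villus site. The fork protection gene Tipin (170.16 in crypt, 30.4 in villus), the polymerase adaptor gene Wdhd1 (103.85 in crypt, 30.87 in villus) and Mcm10 (92.13 in crypt, 24.04 in villus) were bound in both, and Clspn in neither. A high crypt score was thus no assurance of a villus site within this list.

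Polymerase and clamp genes are given side by side. All 9 crypt-bound genes among the 12 for replicative polymerases and primase were bound in villus as well, led by the primase subunit gene Prim1 (999 in crypt, 161.21 in villus), the polymerase alpha subunit gene Pola2 (99.07 and 55.25) and the polymerase delta subunit gene Pold3 (192.52 and 42.17). Pold2, another polymerase delta subunit gene, had a villus site alone (11.46), and Pold4 and Pole had none. Of the 18 genes of the sliding clamp and lagging strand, 15 were bound in crypt and 6 of these in villus. Pcna, the clamp itself, scored 120.38 in crypt and had no villus site. Neither had Dscc1 (92.4) and Rfc1 (43.44), which belong to clamp loaders, nor Rnaseh2b (49.35), a subunit of RNase H2. The clamp loader genes Rfc4 (170.19 in crypt, 76.96 in villus), Rfc2 (74.67 and 14.21) and Atad5 (206.84 and 60.88), the last of which unloads the clamp, were bound in both.

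Of 11 genes of deoxynucleotide synthesis 7 were bound in crypt and 4 of these in villus. Rrm1, the large subunit of ribonucleotide reductase, scored 224.43 in crypt and 20.86 in villus, at 470 bp downstream and 64 bp upstream of a start. Rrm2, the small subunit, scored 80.84 in crypt and had no villus site. Thymidylate synthase (Tyms) reached 999 in crypt and 15.65 in villus, and thymidine kinase (Tk1) had 146.02 in crypt and 3.78 in villus, near the lowest score listed.

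Checkpoint and repair genes resembled replication genes. Of 44 members, 8 were bound in crypt only, 17 in both, 1 in villus only and 18 in neither. Of the crypt-bound members 68.0% (46.5% to 85.0%) were bound in villus, against 27.7% of all crypt-bound genes. Among those with a crypt score of 100 or more this held for 11 of 12, against 85.6% of all genes of that score. From 30 to 100 it held for 4 of 6, against 61.3%, and below 30 for 2 of 7, against 12.7%. At scores of 30 or more the group was thus near all genes of like score. The kinase gene Wee1, which restrains entry into mitosis, scored 172.69 in crypt and 56.9 in villus, and Chek1, the replication checkpoint kinase, 183.24 in crypt and 12.33 in villus. Homologous recombination had 7 of 9 crypt-bound members in villus, among them Brca1 (139.68 and 22.42) and Bard1 (282.22 and 18.88). Neil3, a DNA glycosylase, scored 999 in crypt and 133.9 in villus. Fanci, a Fanconi anemia gene whose product pairs with that of Fancd2, scored 142.37 in crypt and had no villus site.

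**Figure D3:**
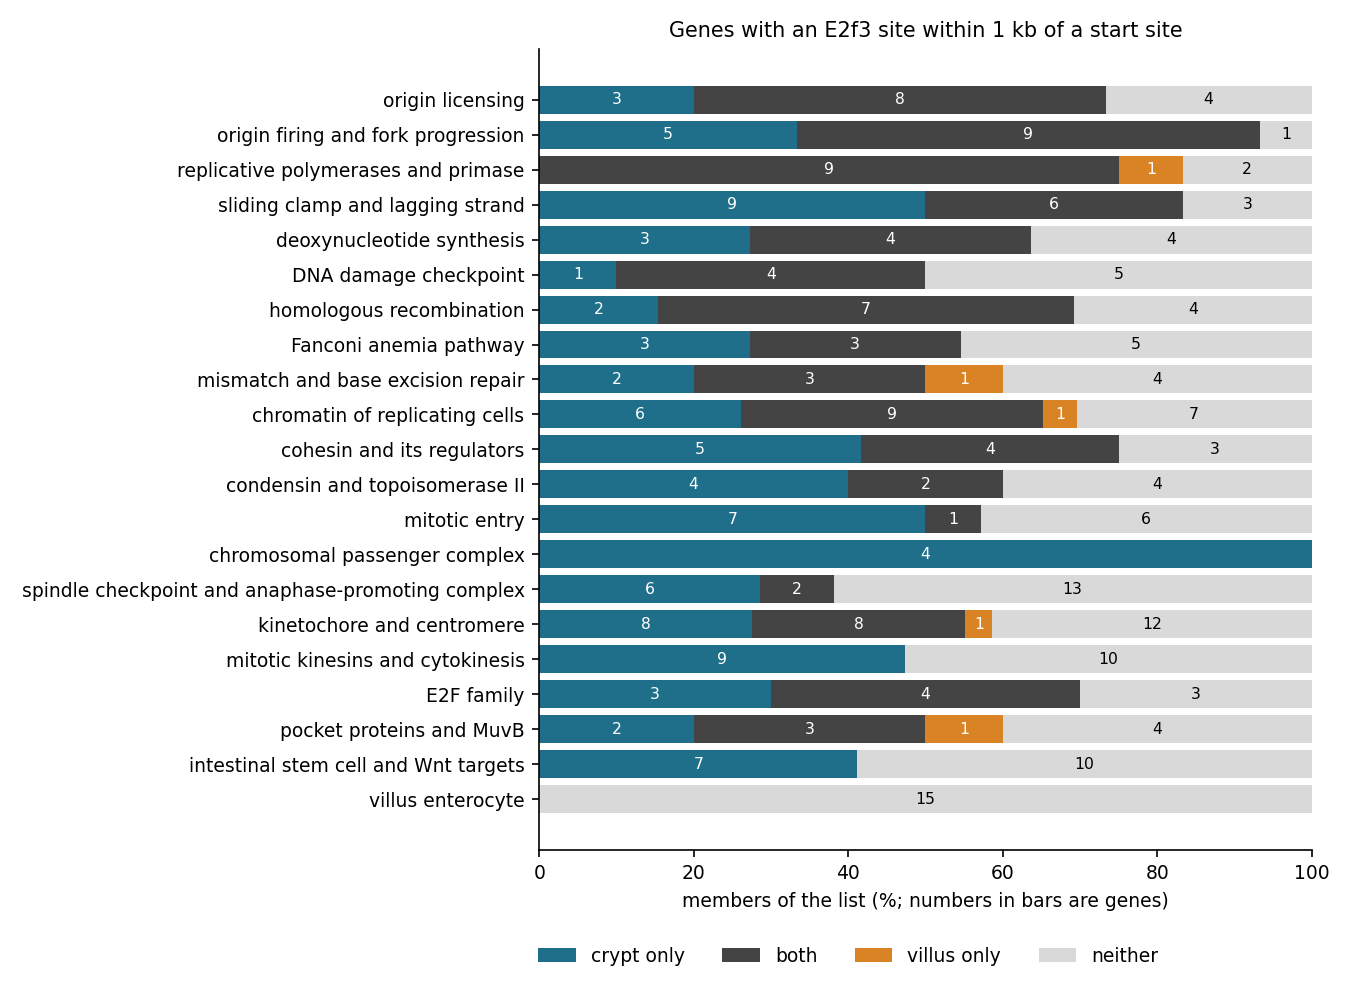
Share of the members of each gene list (bars, %; the numbers inside are genes) with an E2f3 site within 1 kb of a start site in crypt only, in both, in villus only or in neither library, full lists. Replication lists hold many genes bound in both, while the lists from condensin to mitotic kinesins hold mostly genes bound in crypt only or in neither.

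Mitotic genes with a crypt site mostly had none in villus, and at crypt scores of 30 or more the share without one was larger than over all genes of that score. Of 97 mitotic genes, 38 had a promoter site in crypt only, 13 in both, 1 in villus only and 45 in neither. The share of crypt-bound members also bound in villus was 25.5% (14.3% to 39.6%) with the full lists, close to the 27.7% of all crypt-bound genes, whose crypt scores were lower (median 13.04 against 40.45). With sites of a score of at least 5 it was 8 of 51, against 26.2% of all crypt-bound genes, and of at least 10 it was 4 of 43, against 24.2%. At equal length it was 10 of 37 (27.0%, 13.8% to 44.1%), against 62.9% of all genes. With a crypt score of 100 or more it was 6 of 14 (42.9%, 17.7% to 71.1%), against 85.6% of all genes, and from 30 to 100 it was 3 of 18 (16.7%, 3.58% to 41.4%), against 61.3%. Below 30 the order was the other way, with 4 of 19 mitotic genes (21.1%, 6.05% to 45.6%), against 302 of all 2375 genes (12.7%). Without sites near any Myc site, 12 of 46 crypt-bound mitotic genes and 32 of 50 crypt-bound replication genes were bound in villus. The mitotic lists were chosen with this pattern known from earlier results of these data.

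The chromosomal passenger complex, which corrects the attachment of chromosomes to the spindle, had all 4 members bound in crypt and none in villus. Its kinase gene Aurkb scored 999 in crypt, Incenp 227.51, Cdca8 69.43 and Birc5 46.95. Mitotic entry had 8 of 14 members bound in crypt and 1 in villus. That one was Cdk1, the main mitotic kinase, at 256.44 in crypt and 31.85 in villus, where the crypt and villus sites lay 14 bp apart. Cdca3 (192.13 in crypt), which promotes entry into mitosis, Hmmr (101.13), a spindle protein gene, the cyclin gene Ccnb2 (67.41) and the kinase gene Plk1 (37.27) had no villus site.

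Mitotic kinesins and cytokinesis had 9 of 19 members bound in crypt and none in villus. The highest crypt score was that of Iqgap3 (265.88), a scaffold protein gene placed in this list, followed by the kinesin genes Kif15 (85.07) and Kif2c (60.99) and the cytokinesis regulator gene Ect2 (29.68). Among condensin and topoisomerase II genes, Top2a, which untangles chromosomes, scored 259.14 in crypt with no villus site, as did the condensin subunit genes Ncapd2 (94.74) and Smc4 (78.49). The condensin II subunit genes Ncapg2 (999 in crypt, 36.26 in villus) and Ncapd3 (38.44 and 5.28) were bound in both. Of the spindle checkpoint and anaphase-promoting complex, Bub1 (110.39), the separase gene Espl1 (60.24), Fzr1 (29.87) and Mad2l1 (26.89) had crypt sites alone. The ubiquitin ligase subunit genes Anapc5 (174.48 in crypt, 57.5 in villus) and Anapc2 (9.32 and 3.65) were bound in both.

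The kinetochore list was the mitotic list with the most genes bound in both, 8 of 16 crypt-bound members. Those with the highest villus scores were Mis12 (100.88 in crypt, 13.76 in villus), Cenpq (36.56 and 7.97), Cenph (135.49 and 6.64) and Zwint (26.34 and 5.32). Genes with crypt sites alone were led by Nuf2 (158.45), Ska1 (88.04), Sgol1 (47.76) and Cenpn (46.8). Sorted by complex, a grouping made after the values were seen, the Ndc80 complex that grips microtubules had 4 of 4 members in crypt only, and the Mis12 complex had none in crypt only, 2 of 4 in both and 1 (Pmf1, 8.37) in villus only. The constitutive centromere network had 1 of 11 in crypt only, 5 in both and 5 in neither. These are counts on few genes, with no test of a difference between complexes.

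**Figure D4:**
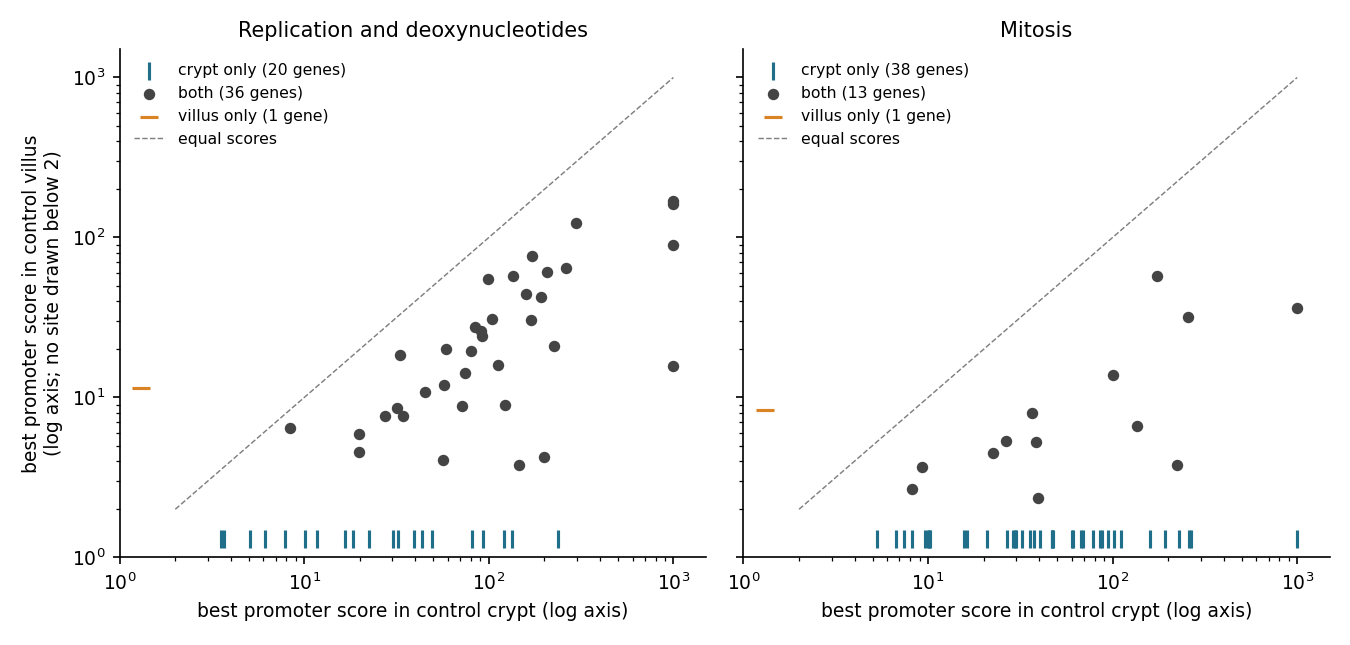
Highest promoter score of each gene in control crypt (horizontal, log axis) and control villus (vertical, log axis) for 71 replication and deoxynucleotide genes on the left and 97 mitotic genes on the right; dots are genes bound in both, blue ticks at the bottom are genes with a crypt site alone and the orange dash at the left edge is a gene with a villus site alone. All dots lie below the dashed line of equal scores, and the blue ticks reach 999 among mitotic genes (Aurkb). The place below the line is not particular to these genes. Over all 6427 pairs of mutually nearest sites below the cap, the crypt score was the higher one in 6192 (96.3%).

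The sequence of the promoters differed between these groups in the same direction. Between 200 bp upstream and 50 bp downstream of a start, the CHR element was present in 35 of 51 crypt-bound mitotic genes (68.6%, 54.1% to 80.9%), against 9 of 56 replication genes (16.1%, 7.62% to 28.3%) and 736 of all 3240 crypt-bound genes (22.7%). Over all 22232 genes 20.6% had it. The E2F motif was present in 18 of 51 mitotic genes (35.3%), 34 of 56 replication genes (60.7%) and 19 of 25 checkpoint and repair genes (76.0%), against 33.7% of all crypt-bound genes and 14.5% of all genes. The highest-scored crypt site itself had an E2F motif within 50 bp in 14 of 51 mitotic genes (27.5%) and 39 of 56 replication genes (69.6%). Over all crypt-bound genes at equal length, a villus site was present in 257 of 356 genes (72.2%, 67.2% to 76.8%) with the E2F motif and no CHR element, and in 63 of 143 (44.1%, 35.8% to 52.6%) with the CHR element and no E2F motif. It was present in 72 of 115 (62.6%) with both elements and 280 of 454 (61.7%) with neither. Median crypt scores at equal length were 46.95 in genes with the CHR element alone and 62.44 in genes with the E2F motif alone, and their part in this difference was not tested. Within classes of crypt score in the full lists, the gap between genes with and without the E2F motif varied. At scores of 221.47 or more, 95.6% with it and 75% without it had a villus site. The shares were 88.9% and 82.1% from 105.53 to 217.81, and 75.2% and 75.9% from 56.82 to 104.98. Below these they were 55.2% and 42.8% from 25.16 to 56.66, 21.6% and 16.1% from 9.32 to 25.09, and 6.27% and 5.97% at 9.32 or less. A motif match describes letters only and does not show which factor was bound.

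**Figure D5:**
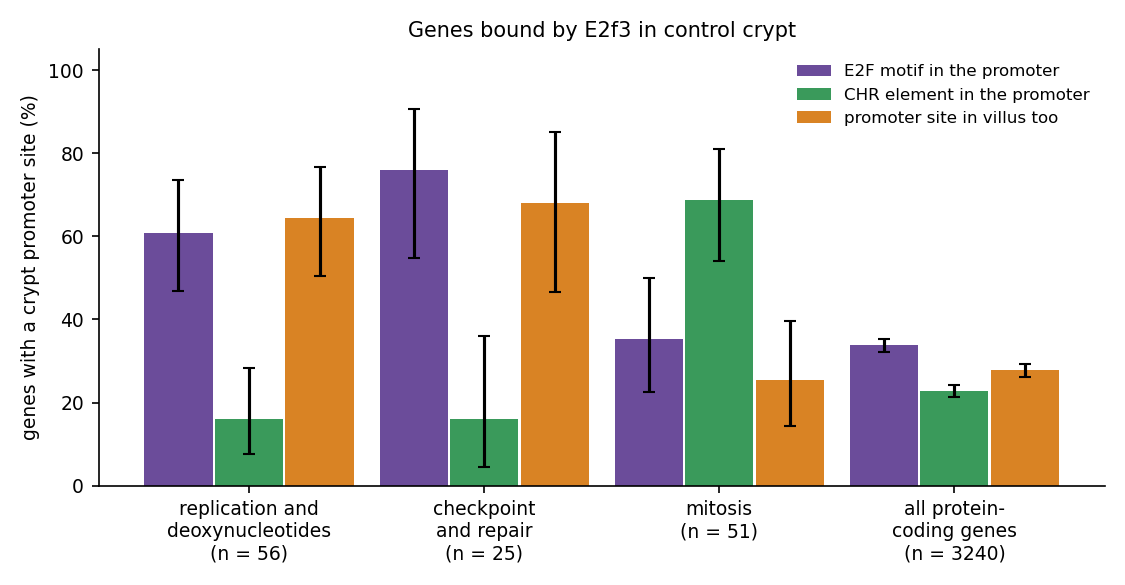
Share of crypt-bound genes (%) with an E2F motif in the promoter, with a CHR element in the promoter and with a villus promoter site, for 3 joined gene lists and all protein-coding genes; error bars are exact 95% binomial intervals. Mitotic genes have the highest CHR share (68.6%) and replication and repair genes the highest E2F and villus shares.

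A tandem of GCGG and the CHR element, known as the CDE and CHR of mitotic promoters, occurs in the Aurkb, Iqgap3 and Bub1 stretches above. With GCGG set 4 bases before TTTGAA or TTCGAA on either strand, 35 genes had the tandem in the promoter window, a search made after the first results were seen. Of these 22 (62.9%) had a crypt site, 18 of them in crypt only (among them Aurkb, Bub1, Cenpf and Nuf2) and 4 in both (Cdk1, Msh5, Pbk and Zbtb7b). For the 11 other spacers between 0 and 11 bases, 10 to 28 genes had the pair and 1 to 11 of them had a crypt site, which is 6.25% to 50% of the genes per spacer. The share of the 22 also bound in villus was 18.2% (5.19% to 40.3%), an interval that holds the 27.7% of all crypt-bound genes. At equal length it was 3 of 13 (23.1%, 5.04% to 53.8%), below the 62.9% of all crypt-bound genes. With the full lists, the villus share at other spacers ran from 0 of 8 crypt-bound genes (11 bases) to 4 of 6 (2 bases). It was 0 of 6 at 7 bases and 4 of 11 at 5 bases. A low share was thus not particular to the spacer of 4 bases. Iqgap3 is not among the 35 genes with the tandem, because there the element reads TTCAAA after GCGG, the reverse complement of TTTGAA.

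The regulators themselves were mostly bound in crypt, and part of them in villus. Of 10 E2F family genes 3 had a promoter site in crypt only, 4 in both and 3 in neither. E2f3 itself scored 999 in crypt and 29.55 in villus, at 403 bp and 370 bp upstream of a start. E2f2, another activator, scored 206.15 in crypt and 67.68 in villus. E2f8, an atypical repressor, scored 202.99 and 17.24, at 210 bp upstream and 260 bp downstream of a start. Tfdp1, which encodes a DP partner, scored 22.21 in crypt and 24.69 in villus. Its site ranked 7778 in the crypt list and 914 in the villus list, and at equal length Tfdp1 had a villus site alone. E2f1 (44.97), E2f6 (19.17) and E2f5 (5.8) had a crypt site alone, and E2f4, E2f7 and Tfdp2 had none. Among pocket protein and MuvB genes, Rbl1, which encodes p107, scored 255.27 in crypt and 44.45 in villus, Lin52, a MuvB subunit, 176.28 and 21.78, and Rbbp4 34.67 and 7.95. Mybl2 (56.92) and Foxm1 (33.08), whose proteins join MuvB to activate mitotic genes, had crypt sites alone. Rb1 had a villus site alone, with a score of 3.47, and Rbl2, Lin9, Lin37 and Lin54 had no site.

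Chromatin genes of replicating cells had 15 of 23 members bound in crypt, 9 of these in villus. The histone chaperone gene Nasp reached 999 in crypt and 999 in villus, at the same intronic base on chromosome 4. Tmpo, a lamina-associated protein gene (999 in crypt, 111.62 in villus), Atad2 (999 and 67.48) and Uhrf1 (73.07 and 35.06), a factor of maintenance methylation, were bound in both. The Uhrf1 site lay 29 bp upstream of a start in crypt and 406 bp upstream in villus. H2afx (262.19), Chaf1b (105.53) and Dnmt1 (84.66), which encode a histone variant, a chromatin assembly factor and the maintenance methyltransferase, had crypt sites alone. Suv39h1, a histone methyltransferase gene, had a villus site alone (10.14). Cohesin genes had 9 of 12 members bound in crypt and 4 in villus, with Pds5b at 999 in crypt and 115.26 in villus and Cdca5, the gene of sororin, at 73.2 in crypt alone.

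Some genes of the crypt programme had sites in crypt, and the listed enterocyte genes had none in either library. No villus site lay at any of 15 enterocyte genes, such as Alpi, Vil1 and Fabp1, and no crypt site either. Over all genes 18896 of 22232 (85.0%) had no site in either library, so a count of 0 in a short list says little. Of 17 stem cell and Wnt target genes 7 (41.2%) had a crypt site, against 3240 of 22232 over all genes. None had a villus site, against 994 of 22232 over all genes. The crypt sites were led by the proliferation marker gene Mki67 (107.8) and the Wnt target gene Axin2 (38.44), while Lgr5, Ascl2 and Olfm4 had none. All other crypt sites of this list scored 6.12 or less, low in the range. At equal length only Mki67 and Axin2 still had a crypt site, 2 of 17 genes, against 1068 of 22232 over all genes. None of 10 immune and 9 stromal or endothelial marker genes had a site in either library, which also held for 85.0% of all genes. Since a site list does not measure expression, these counts are no check of the labelled cell types.

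The genes with the highest scores outside the lists came partly from regions where other antibodies also gave sites. Among the 8 highest-scored genes of crypt only stood Gm10718 (999) and mt-Nd5 (999), beside Aurkb, Hist1h3g (999), Tcfap4 (277.04), Iqgap3, H2afx and Top2a. Among those of villus only stood Gm17535 (241.94) and Gm10716 (167.18), followed by Hist1h3i (47.26), S100pbp and Yars (both 42.62, the same site), Tra2b (37.48), 4931408C20Rik (34.38) and Sh3bp4 (24.85). Among those of both, by villus score, stood Gm10106, Gm10719, Gm11167 and Gm10720, beside Nasp, Dclre1a and Nhlrc2 (both 208.26 in villus, the same site) and Srsf1 (199.02 in villus). All 7 Gm genes named here lie near the start of chromosome 9, where most of the other libraries, Myc lists included, have promoter sites too. Tra2b and Srsf1 encode splicing regulators, and Dclre1a a nuclease for the repair of crosslinked DNA.

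With the full lists, most crypt-only promoter sites were present in the E2f3 list of Rb-deficient crypt, and part of them in that of Rb-deficient villus. Of crypt-only promoter sites, 72.1% (70.2% to 73.8%) lay within 250 bp of a site in Rb-deficient crypt and 43.5% (41.5% to 45.4%) in Rb-deficient villus. For shared crypt promoter sites these shares were 94.9% and 83.1%, and for villus-only promoter sites 67.4% (58.6% to 75.4%) and 55.8% (46.8% to 64.5%). At equal length the classes lay closer together. The shares there were 94.6% and 77.5% for crypt-only, 97.3% and 88.4% for shared crypt and 79.4% and 62.7% for villus-only promoter sites. Of the 38 mitotic genes bound in control crypt but not control villus, 37 had a promoter site in Rb-deficient crypt and 34 in Rb-deficient villus. Over all 2342 genes bound in crypt only, 1799 had one in Rb-deficient crypt and 1110 in Rb-deficient villus. Over the 396 genes bound in crypt only at equal length, 381 and 319 had one. Crypt-bound mitotic genes had higher crypt scores than all crypt-bound genes (median 40.45 against 13.04), and the part of score in these counts was not tested. The Rb-deficient villus list, with 14843 sites, is longer than the control villus list, and its depth is unknown as well.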

How the data were processed

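The data were 8 ChIP-exo-seq libraries of mouse intestine, 1 per group. The tools were Bowtie2 2.2.1 and MACS2 2.0.10 and the build mm9, per the submitters' processing notes. The deposited file names describe each list as GEM events overlapping MACS2 peaks, after merging and with duplicates kept. The sources used here do not give what was merged, the GEM version, thresholds or read numbers. The authors deposited a score per site, from 2 to a cap of 999, whose meaning and normalization are not stated. E2F motif centres fell on the deposited position plus 1, so coordinates here are that position plus 1.

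Python 3.11.15 with numpy 2.4.6, pandas 2.3.3 and scipy 1.17.1 was used to compute overlaps (within 250 bp), promoter sites (within 1 kb of 45974 start sites of protein-coding genes, GENCODE M1), motifs (within 50 bp of a site, or 200 bp upstream to 50 bp downstream of a start, both strands) and exact 95% binomial (Clopper-Pearson) intervals. Motif background came from windows 2 kb away. The overlap code was tested on simulated data. Sites outside the reference chromosomes, 179 in crypt and 192 in villus, stayed in overlaps but received no gene or motif. Sharing was also computed at 7405 sites per list. Sites between divergent genes counted for both.

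The members and the gene lists were chosen with earlier results of these data known. Of the listed symbols 5 (Bora, Ska2, Ska3, Mis18a and Gfi1) were not found in the annotation. Genes were named by rule: the 8 highest-scored of each class, all E2F, pocket protein and MuvB genes, and of other lists the up to 4 highest of each class, all villus-only members and, in lists mostly bound, unbound members. Exceptions are stated. Alternatives tried were other distances, scores and list lengths, contigs left out, and, chosen after seeing the data, sites near Myc sites left out. Some genes the rule names are not reported here.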

Additional observations from a re-analysis of the deposited data

How the results depend on the processing

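The 2 libraries have no replicate to leave out. No paired analysis was possible because each group had 1 library. Sharing of crypt sites in the full lists (21.0%) moved to 19.7% within 50 bp, 21.9% within 1000 bp, 20.4% at a score of at least 5, 17.8% at a score of at least 10 and 20.6% without sites near any Myc site. Sharing of villus sites (90.0%) moved to 86.1%, 91.3%, 92.6%, 93.5% and 77.3% in the same order, and to 90.7% without contigs. At equal length, crypt and villus shares moved to 57.9% and 57.6% within 50 bp, 63.8% and 64.0% with the top 4000 sites and 62.0% and 62.3% with the top 2000, and the villus share to 61.6% within 1000 bp. Genes bound in crypt only, in both and in villus only numbered 1456, 466 and 38 at a score of at least 10. Within 5000 bp 4199 were bound in crypt only and 1567 in both. With the crypt list shortened to the villus length the order of the gene classes turned: 396 genes were bound in crypt only, 672 in both and 322 in villus only, against 2342, 898 and 96 with the full lists. The share of crypt-bound genes bound in villus was 62.9% there, against 27.7% with the full lists, 26.2% at a score of at least 5 and 24.2% at a score of at least 10. The E2F share was 5.07%, 6.01% and 7.87% of crypt-only sites within 25, 100 and 250 bp, 11.8% and 13.9% of shared crypt sites within 100 and 250 bp, and 18.4% of villus-only sites within 250 bp. The promoter share of crypt-only, shared and villus-only sites was 7.55%, 11.1% and 13.5% within 500 bp. Within 5000 bp it was 18.9%, 22.1% and 27.7%, and within 2000 bp 12.5% of crypt-only and 16.0% of shared sites. Depth is unknown, so whether the shorter villus list reflects fewer reads was not tested.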

Other observations

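Other gene groups add to the picture. Replication-dependent histone genes had 21 of 67 members bound in crypt and 13 of these in villus as well, with Hist2h4 at 999 in crypt and 78.67 in villus and Hist1h3a at 165.68 in crypt and 59.57 in villus. Histone genes lie in clusters of near-identical copies, so their sites are uncertain. Of 12 genes of the p53 pathway and apoptosis, 2 were bound in crypt only and 4 in both, among them the p53 target gene Bbc3 (119.49 in crypt, 32.66 in villus) and the caspase gene Casp8 (74.68 in crypt, 4.03 in villus). In the Myc network, Myc (121.39) and Mycn (114.46) had crypt sites alone, and Mxd3, which encodes a Max partner, scored 298.73 in crypt and 13.51 in villus.

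Intestinal transcription factor genes had 5 of 15 members bound in crypt and 1 of these in villus, Elf3 (87.21 in crypt, 32.8 in villus), an epithelial ETS factor gene. Ribosomal protein genes had 21 of 79 bound in crypt and 5 of these in villus. Housekeeping genes had 7 of 15 bound in crypt and 4 of these in villus. Of 9 secretory lineage genes 2 had a crypt site, Agr2 (8.26) and Muc2 (3.71), and none a villus site. Of 1087 olfactory receptor genes 12 had a site in crypt and 3 of these in villus.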
